A study of Mus musculus with 8 samples.

Results

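Enzymes that attach a polar group to foreign or body-own compounds, and enzymes that oxidise, reduce or hydrolyse reactive aldehydes, ketones and esters, were followed across sorted cells of the mouse intestinal crypt. A gene was included when an array probe set named it alone and its symbol placed it among the glutathione transferases (Gst and Mgst), UDP-glucuronosyltransferases (Ugt), sulfotransferases (Sult), acetyltransferases by name (Nat1, Nat2, Nat8 and the symbols that begin with these letters), carboxylesterases (Ces), aldehyde dehydrogenases (Aldh) or aldo-keto reductases (Akr1 and Akr7). This gave 106 of 18193 genes: 24 glutathione transferases, 10 UDP-glucuronosyltransferases, 13 sulfotransferases, 11 acetyltransferases, 13 carboxylesterases, 20 aldehyde dehydrogenases and 15 aldo-keto reductases. The choice used symbols and no difference between groups, but it was made with earlier results of these data known. Each gene was represented by the probe set with the highest mean over the EphB2 arrays. A further 10 probe sets held a matching symbol together with other genes, among them those of the Ugt1a genes, and were not analysed here. The rule also takes a few genes of another kind, namely Nat10, an acetyltransferase that modifies RNA, Nat8l, which makes N-acetylaspartate, and Nat14 and Gstcd, whose substrates are not established.

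Crypt cells of C57BL/6 mice were released with EDTA, Dispase and DNase, and flow cytometry divided them into EphB2 High, EphB2 Medium and EphB2 Low cells by an antibody to surface EphB2, with 2 arrays per group. In mice carrying an EGFP knock-in at the Lgr5 locus, cells were sorted instead by reporter level into Lgr5 High and Lgr5 Low, with 1 array per group, which makes 8 arrays in all. No treatment was applied, the ages and numbers of animals are not given in the sources used here, and every sample passed the same dissociation, Trizol extraction and isothermal amplification from 25 ng of RNA. EphB2 replicate 1 of each group shared a first hybridization and replicate 2 a second, whereas the Lgr5 arrays were hybridized separately. The labels name no animal for a replicate, and p-values therefore cover only the spread from array to array within these groups, which may be technical.

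EphB2 is a receptor with most protein on cells at the bottom of the crypt and less on cells nearer the villus, and Lgr5 marks the stem cells at the bottom. Intestinal enterocytes meet dietary chemicals and bile first, and conjugating enzymes there join glutathione, glucuronic acid, sulfate or acetate to such compounds so that they can be exported. Carboxylesterases cleave esters of drugs and lipids, aldehyde dehydrogenases turn aldehydes, retinal among them, into acids, and aldo-keto reductases turn carbonyl groups into alcohols.

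The results turn on a run of directly neighbouring acetyltransferase genes that were all lower in EphB2 High cells. They also turn on a pair of neighbouring mu glutathione transferase genes that went opposite ways. The windows around the starts of that pair and of the 2 acetyltransferase genes with the largest differences are therefore printed here. Each holds 300 bases, 250 before and 50 after the annotated start, 5′ to 3′, from RefSeq on GRCm38.p6. Capitals mark matches, on either strand, to 1 of 8 short motifs. Nat8f5 lies at chr6:85820923-85821222 on the minus strand, the second of 2 Nat8 windows at chr6:85832230-85832529 on the minus strand, Gstm5 at chr3:107895604-107895903 on the plus strand, and the 2 Gstm7 windows, which overlap, at chr3:107931768-107932067 and chr3:107931565-107931864 on the minus strand.
Nat8f5: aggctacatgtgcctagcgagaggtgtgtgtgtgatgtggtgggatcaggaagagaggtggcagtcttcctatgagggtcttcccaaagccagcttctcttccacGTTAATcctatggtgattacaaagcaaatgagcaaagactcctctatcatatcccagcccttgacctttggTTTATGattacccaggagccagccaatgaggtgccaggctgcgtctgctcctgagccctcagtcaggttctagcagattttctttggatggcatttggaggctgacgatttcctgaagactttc
Nat8, window 2: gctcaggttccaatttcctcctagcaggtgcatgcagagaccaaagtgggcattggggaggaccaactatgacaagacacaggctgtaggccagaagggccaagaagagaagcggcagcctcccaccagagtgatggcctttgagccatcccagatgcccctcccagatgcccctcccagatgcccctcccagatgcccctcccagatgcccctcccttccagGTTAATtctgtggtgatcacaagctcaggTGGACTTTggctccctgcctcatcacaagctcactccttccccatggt
Gstm5: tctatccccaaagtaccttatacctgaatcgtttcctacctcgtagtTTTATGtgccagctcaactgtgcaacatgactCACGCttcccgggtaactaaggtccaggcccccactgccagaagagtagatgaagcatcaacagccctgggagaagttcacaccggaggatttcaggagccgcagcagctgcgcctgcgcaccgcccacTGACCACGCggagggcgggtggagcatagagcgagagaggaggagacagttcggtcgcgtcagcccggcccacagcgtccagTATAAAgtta
Gstm7, window 1: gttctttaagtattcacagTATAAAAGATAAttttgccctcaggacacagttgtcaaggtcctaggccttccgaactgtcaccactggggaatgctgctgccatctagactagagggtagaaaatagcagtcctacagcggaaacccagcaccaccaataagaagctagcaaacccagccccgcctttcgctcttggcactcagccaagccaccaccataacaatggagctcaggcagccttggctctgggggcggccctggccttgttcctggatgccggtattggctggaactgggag
Gstm7, window 2: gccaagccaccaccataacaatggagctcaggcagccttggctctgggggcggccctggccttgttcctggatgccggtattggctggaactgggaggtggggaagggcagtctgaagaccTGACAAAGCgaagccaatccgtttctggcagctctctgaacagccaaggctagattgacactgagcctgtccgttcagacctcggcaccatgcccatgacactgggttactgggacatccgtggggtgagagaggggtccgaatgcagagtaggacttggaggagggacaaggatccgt

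The capitals stand for these letters. Nat8f5 and the second Nat8 window each hold the HNF1 half-site GTTAAT, Nat8f5 also the CDX motif TTTATG, and Nat8 also the HNF4 motif AAAGTCCA, read on the other strand. The first Nat8 window, not printed, holds none of the 8 motifs. The half-site is not in the windows of Nat8f2, Nat8f4 and Nat8f1, the other genes of that run, which hold the CDX motif, the TCF motif and the aryl hydrocarbon receptor core (Nat8f2), the antioxidant core and the TATA box in 1 of 2 windows (Nat8f4), and the aryl hydrocarbon receptor core (Nat8f1). Gstm5 holds the antioxidant response element core TGACNNNGC, TTTATG and the TATA box letters TATAAA. It also holds the aryl hydrocarbon receptor core GCGTG at 2 places, of which 1 lies inside the antioxidant match. Its TATAAA begins at base 291 of the window, after the annotated start. Gstm7 holds TATAAA (from base 20) and the GATA motif AGATAA side by side in its first window and the antioxidant core in its second. Windows were found for 88 of the 106 genes. Over these 88 genes, 9 (10.2%) held the antioxidant core, against 12.4% of 32851 windows of the same length over all genes. HNF4 letters were found in 4 (4.55%, against 1.25% of all windows), the HNF1 half-site in 11 (12.5%, against 7.1%), the GATA motif in 17 (19.3%, against 11.2%) and the CDX motif in 17 (19.3%, against 11.9%). TATAAA was found in 16 (18.2%, against 13.6%), the TCF motif CTTTGAT in 3 (3.41%, against 3.73%) and GCGTG in 23 (26.1%, against 32.4%). Some genes have several windows, so a share of genes is somewhat easier to reach than a share of windows. Over 27025 genes the antioxidant core was in 14.0%, the HNF4 letters in 1.46%, the HNF1 half-site in 8.24% and the GATA motif in 12.7%. On that measure the CDX motif was in 13.6%, TATAAA in 15.7%, the TCF motif in 4.29% and GCGTG in 35.2%. These matches describe letters only.

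Values are log2 signals after RMA, on which 1 unit is a 2-fold difference. The array medians over all probe sets lay between 6.12 and 6.20, and the medians over the 18193 genes between 7.64 and 8.02. Lgr5 itself was higher in EphB2 High than in EphB2 Low by 4.25 ± 0.25 (SE) and on the Lgr5 High array than on the Lgr5 Low array by 4.39, as the labels imply. Of the 106 genes, 57 were above the gene median of their array on all 8 arrays, 36 were below it on all 8, and 13 crossed it. The 10 epithelial markers were all above that median on every array, and 9 of 10 stromal and 10 of 10 lymphocyte markers were below it on every array.

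Between EphB2 High and EphB2 Low cells, 47 of the 106 enzymes (44.3%) were lower in EphB2 High and 7 (6.6%) were higher, while 52 did not pass (limma, Benjamini-Hochberg adjusted p below 0.05 over all genes). Over all 18193 genes, 37.3% passed, 22.0% of them higher and 15.3% lower as shares of all genes. The median difference of the enzymes was -0.41, beside 0.01 for all genes. None of the 54 enzymes called had overlapping arrays between the groups. This was counted only after the call, without a share over all genes, so it adds no support to the calls. Of the 47 that were lower, 34 differed at least 2-fold and 6 at least 8-fold, and the EphB2 Medium mean lay between the others for all 47. Genes chosen for a difference between High and Low favour such a position of Medium. Its share over all genes called lower was not computed. Of the 36 enzymes below the gene median on every array, 33 did not pass, 3 were lower and 0 were higher. Of the 57 above it on every array, 33 were lower, 6 were higher and 18 did not pass. That split was not made over all genes. In a fit limited to genes above the median signal, 5744 genes passed, against 6792 in the fit of all 18193. Bright genes in general thus passed more often, and the 37.3% is a low comparison for the brighter enzymes.

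**Figure D1:**
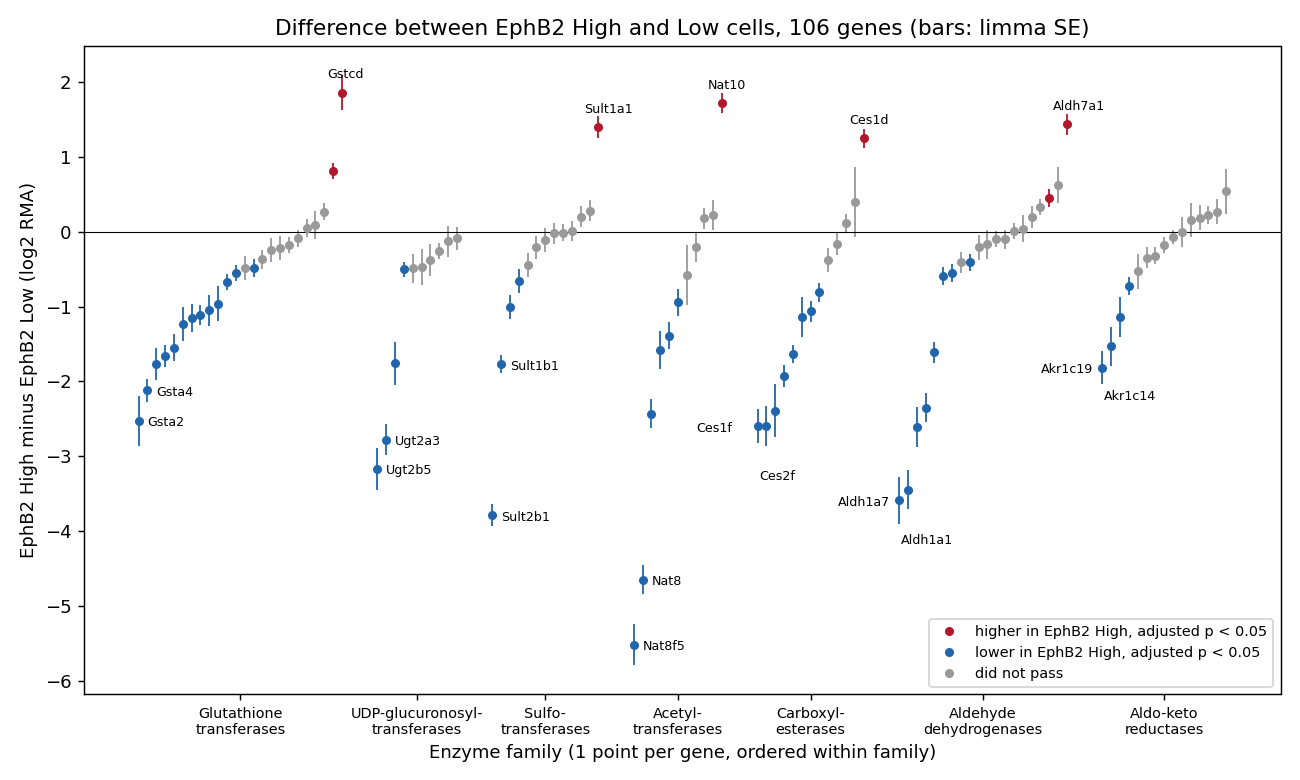
Log2 difference between EphB2 High and EphB2 Low cells (vertical axis) for each of the 106 genes, grouped by enzyme family along the horizontal axis; points are limma estimates from 2 arrays per group and bars their standard errors. Blue points (47 genes) reach down to -5.52 for Nat8f5 and red points (7 genes) up to 1.86 for Gstcd, and 5 of the 7 families hold at least 1 red point.

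Among the 24 glutathione transferases, which add glutathione to electrophiles, 13 were lower in EphB2 High, 2 were higher and 9 did not pass, and the median difference was -0.52. The largest of these differences was in the alpha class. Gsta2 read 5.60 and 5.76 on the EphB2 High arrays, 6.74 and 6.86 on the Medium arrays and 7.69 and 8.74 on the Low arrays, a difference of -2.53 ± 0.33 between High and Low (limma adjusted p = 0.00261). Gsta4, which conjugates the lipid peroxidation product hydroxynonenal, read 11.25 and 11.11 in High, 12.44 and 12.60 in Medium and 13.15 and 13.46 in Low, and fell by 2.12 on the log2 scale from Low to High (SE 0.15; adjusted p = 0.000503). For both genes the groups were ordered Low, Medium, High on every array. Gsta3 was lower by a smaller amount, with 8.47 and 8.44 in High against 9.32 and 9.88 in Low (-1.15 ± 0.19, adjusted p = 0.00624).

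Gstk1, the kappa enzyme of mitochondria and peroxisomes, read 10.99 and 11.09 in High, 11.71 and 11.72 in Medium and 12.53 and 12.87 in Low (-1.66 ± 0.15 for High minus Low, adjusted p = 0.000943). In the mu class, Gstm6 differed by -1.77 ± 0.21 (adjusted p = 0.00206), Gstm4 by -1.55 ± 0.18 (adjusted p = 0.00179), Gstm7 by -1.23 ± 0.23 (adjusted p = 0.00914) and Gstm3 by -1.11 ± 0.13 (adjusted p = 0.0019). Gstm3 was read from a probe set of the shared type. Its other probe set, with an EphB2 mean of 10.86 against 12.9, differed by -2.21, so the size depends on the probe set. Gstm5 went the other way: it read 12.29 and 12.30 in High, 12.04 and 11.96 in Medium and 11.54 and 11.41 in Low, higher in High by 0.81 ± 0.11 (adjusted p = 0.00322). Gstm1 (-0.37, adjusted p = 0.0655) and Gstm2 (-0.22, adjusted p = 0.338) did not pass. The 3 membrane-bound enzymes differed by -0.67 (Mgst3, adjusted p = 0.00546), -0.55 (Mgst2, adjusted p = 0.0106) and -0.49 (Mgst1, adjusted p = 0.0608, and 0.0171 with the hybridization as a block).

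Gstp1, the brightest of the family's probe sets, read 13.72 and 13.75 in High, 13.76 and 13.79 in Medium and 13.89 and 13.93 in Low, a difference of -0.18 ± 0.11 that did not pass (adjusted p = 0.255). It passed only when the prior variance was allowed to follow signal (adjusted p = 0.0186). Gsto1, Gstz1, which acts in tyrosine breakdown, and Gstt2 differed by -0.09, 0.05 and 0.27 and did not pass either. The other Gsto1 probe set, with an EphB2 mean of 12.61, differed by -0.42 and was not tested singly. Gstcd, a protein with a glutathione transferase domain, was higher by 1.86 ± 0.23 (3.62-fold, adjusted p = 0.00218), with 8.42 and 8.77 in High, 8.13 and 8.55 in Medium and 6.95 and 6.53 in Low, so its Medium arrays lay with the High arrays. The calls of Gstm7, Gstp3, Gstt1, Gstt3 and Mgst2 were lost when an array was left out, with an adjusted p of 0.053 for Gstm7 without EphB2 High replicate 1, and of 0.0691 for Gstt1 and 0.0698 for Mgst2 without EphB2 High replicate 2. That of Gstp3 reached 0.0881 without EphB2 High replicate 2 or either EphB2 Low array, and that of Gstt3 reached 0.13 in the 5 fits that lost it, all but the fit without EphB2 Low replicate 1.

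UDP-glucuronosyltransferases attach glucuronic acid to steroids, bile acids, bilirubin and drugs. Of the 10 measured, 4 were lower in EphB2 High, 0 were higher and 6 did not pass, and 5 of the 10 were below the gene median on every array. Ugt2b5 read 8.03 and 8.22 in High, 9.78 and 10.07 in Medium and 10.88 and 11.71 in Low, 9.02-fold lower in High (-3.17 ± 0.28, adjusted p = 0.000953). Ugt2a3 read 8.88 and 8.69 in High, 10.21 and 10.54 in Medium and 11.33 and 11.80 in Low (-2.78 ± 0.21, adjusted p = 0.000569). For both genes the 3 groups did not overlap. Ugt2b36 was lower by 1.76 on the log2 scale, that is -1.76 ± 0.29 (adjusted p = 0.00597).

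Ugt2b34, which had the brightest probe set of the family, shifted little but tightly, from 13.02 and 13.01 in High to 13.30 and 13.30 in Medium and 13.52 and 13.51 in Low (-0.50 ± 0.10, adjusted p = 0.0129), a call that needed both EphB2 High arrays (adjusted p up to 0.074 with 1 of them left out). The other Ugt2b34 probe set, with an EphB2 mean of 12.43, differed by -0.85. Ugt2b35, also above the gene median on every array, read between 11.16 and 11.50 on all 6 EphB2 arrays (-0.09 ± 0.15, adjusted p = 0.682). Ugt2b38 was the 1 enzyme that passed between Medium and Low (-0.90 ± 0.19, adjusted p = 0.0212) and not between High and Low (-0.49, adjusted p = 0.096). Its values on the 8 arrays stayed between 2.15 and 3.37, below the gene median of every array.

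Sulfotransferases transfer sulfate from the donor PAPS to phenols, steroids and other alcohols. Among the 13 measured, 4 were lower in EphB2 High, 1 was higher and 8 did not pass, and 8 lay below the gene median on every array. Sult2b1, which sulfates cholesterol and pregnenolone, read 8.20 and 8.32 in High, 9.64 and 9.71 in Medium and 11.89 and 12.22 in Low. It was 13.9-fold lower in High (-3.79 ± 0.15) and had the smallest adjusted p of the 106 genes (0.000131). Sult1b1, a phenol and thyroid hormone sulfotransferase, read 11.63 and 11.59 in High, 12.49 and 12.65 in Medium and 13.30 and 13.45 in Low (-1.77 ± 0.12, adjusted p = 0.000462).

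Its neighbour Sult1d1 differed by -1.00 ± 0.16 (adjusted p = 0.00466), with 11.67 and 11.81 in High against 12.61 and 12.86 in Low. Sult1a1, the general phenol sulfotransferase, was the exception: it read 9.82 and 9.88 in High, 9.59 and 9.43 in Medium and 8.62 and 8.28 in Low, higher in High by 1.40 ± 0.15 (2.64-fold, adjusted p = 0.00164). The Medium arrays of Sult1a1 lay close to the High arrays and well above both Low arrays. Sult4a1, an enzyme better known from brain, was dim on every array and differed by -0.66 ± 0.16 (adjusted p = 0.0221). That call was lost with the mean of its probe sets (-0.39, adjusted p = 0.119) and without either EphB2 High array or EphB2 Low replicate 2.

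The acetyltransferases held the largest differences. Nat8 makes mercapturic acids by acetylating the cysteine conjugates left after glutathione is trimmed, and Nat8f1 to Nat8f5 are its close relatives. Nat8f5 read 5.13 and 5.62 in High, 7.86 and 8.40 in Medium and 10.69 and 11.10 in Low (-5.52 ± 0.27 for High minus Low, adjusted p = 0.000215). Its High signals were dim, not far above the medians of the stromal markers on the same arrays (4.53 and 4.45), so the difference may understate the change and no fold is given. Nat8 read 7.64 and 7.95 in High, 10.04 and 10.31 in Medium and 12.27 and 12.61 in Low, 25.1-fold lower in High (-4.65 ± 0.19, adjusted p = 0.000142). Nat8 differed by -2.27 from Low to Medium and by -2.38 from Medium to High. Differences within the first and second hybridization were -5.57 and -5.48 for Nat8f5 and -4.64 and -4.66 for Nat8.

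The same limit holds for Nat8f2 (4.71 and 4.77 in High) and, in other families, for Aldh4a1 and Ces2f. Nat8f4 was lower by a difference of -2.43 ± 0.19 (adjusted p = 0.000698), Nat8f2 by -1.58 ± 0.25 (adjusted p = 0.00489) and Nat8f1 by -1.39 ± 0.18 (adjusted p = 0.00267). Nat8f3 was dim on every array and did not pass (-0.58 ± 0.40, adjusted p = 0.315). Of the arylamine acetyltransferases, Nat2 read 8.47 and 8.68 in High and 9.64 and 9.39 in Low (-0.94 ± 0.18, adjusted p = 0.00953, and 0.0569 without EphB2 High replicate 1). Nat1 was dim and did not pass (0.23, adjusted p = 0.446).

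The acetyltransferase that was higher, Nat10, is the RNA-modifying one. It read 10.58 and 10.65 in High, 10.16 and 10.01 in Medium and 8.99 and 8.81 in Low, higher in High by 1.72 ± 0.13 (3.28-fold, adjusted p = 0.000565). Nat14 (-0.21) and Nat8l (0.18) did not pass and were dim. Of the 11 genes, 6 were lower, 1 was higher and 4 did not pass, and the median difference was -0.94.

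**Figure D2:**
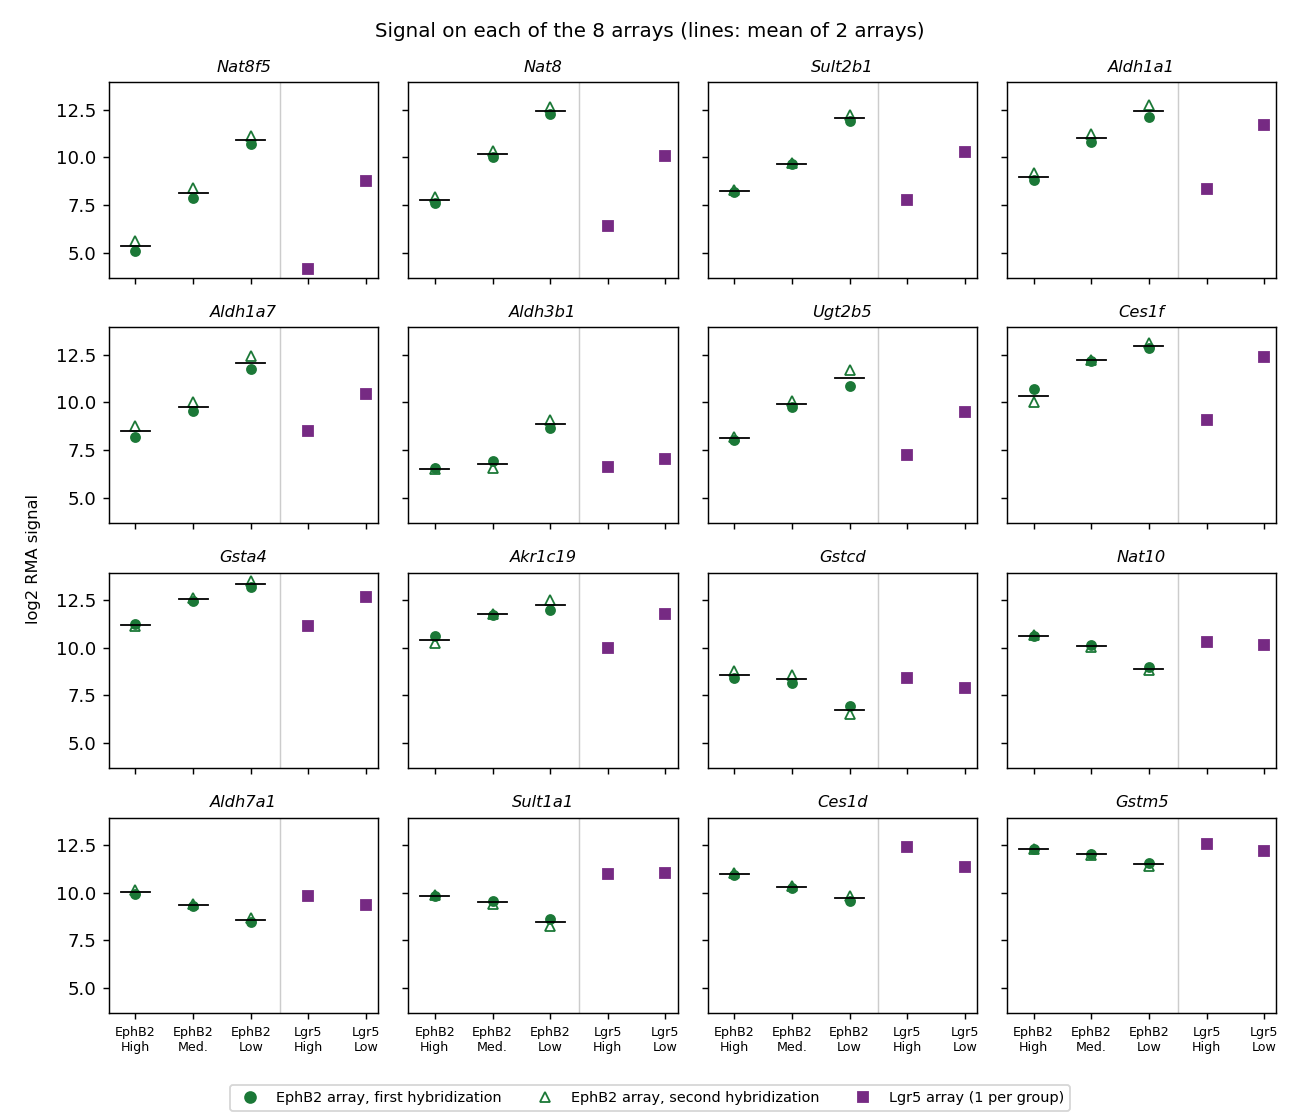
Log2 RMA signal (vertical axis) on each of the 8 arrays for 16 of the genes, by sorted group (horizontal axis); circles and triangles are the EphB2 arrays of the first and second hybridization, black lines their means, and squares the single Lgr5 arrays. Nat8f5 climbs from 5.13 and 5.62 in EphB2 High to 10.69 and 11.10 in EphB2 Low, while Gstcd, Nat10, Aldh7a1, Sult1a1, Ces1d and Gstm5 lie lower in EphB2 Low than in EphB2 High.

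Carboxylesterases hydrolyse ester drugs and lipid esters. Of 13, 8 were lower in EphB2 High, 1 was higher and 4 did not pass, and the median difference was -1.06. Ces1f read 10.69 and 10.04 in High, 12.19 and 12.23 in Medium and 12.84 and 13.09 in Low, 6.06-fold lower in High (-2.60 ± 0.23, adjusted p = 0.000922). Its Medium arrays lay closer to the Low arrays than to the High arrays. Ces2e read 11.50 and 11.19 in High, 12.36 and 12.43 in Medium and 13.16 and 13.38 in Low (-1.93 ± 0.15, adjusted p = 0.000708).

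The other genes of the second carboxylesterase class were lower as well: Ces2f by -2.60 ± 0.27 (adjusted p = 0.00137), Ces2b by -2.39 ± 0.35 (adjusted p = 0.00381), Ces2a by -1.63 ± 0.12 (adjusted p = 0.000614) and Ces2g by -1.06 ± 0.14 (adjusted p = 0.00285). Ces2f was below the gene median on every array, at 4.29 and 3.59 in High and 6.39 and 6.69 in Low. Its other probe set, with an EphB2 mean of 4.65 against 5.13, differed by only -0.11 between High and Low. The 2 dim probe sets of Ces2f thus gave unlike sizes. In the first class, Ces1e differed by -0.81 ± 0.13 (adjusted p = 0.00464) and Ces1g by -1.14 ± 0.27 (adjusted p = 0.0204, and up to 0.101 without EphB2 High replicate 1 or EphB2 Low replicate 2).

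Ces1d, a triacylglycerol hydrolase, was the 1 esterase higher in EphB2 High. It read 10.93 and 11.01 in High, 10.24 and 10.35 in Medium and 9.59 and 9.84 in Low (1.25 ± 0.13, adjusted p = 0.00147). Its 3 groups were separated on every array, in the order opposite to Ces1f. Ces1c, a carboxylesterase secreted into plasma, was higher on the second hybridization in every group, at 7.67 and 8.76 in High, 7.94 and 8.87 in Medium and 7.48 and 8.14 in Low, and its difference between High and Low (0.40 ± 0.47, adjusted p = 0.572) was smaller than that between hybridizations. Ces1h, Ces4a and Ces5a were dim on every array and did not pass.

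Among the 20 aldehyde dehydrogenases, 8 were lower in EphB2 High, 2 were higher and 10 did not pass. Aldh1a1, which oxidises retinal to retinoic acid, read 8.82 and 9.16 in High, 10.83 and 11.23 in Medium and 12.13 and 12.75 in Low, 10.9-fold lower in High (-3.45 ± 0.26, adjusted p = 0.000602). Its rodent paralogue and neighbour Aldh1a7 read 8.20 and 8.79 in High, 9.55 and 10.03 in Medium and 11.75 and 12.41 in Low, 12.0-fold lower in High (-3.59 ± 0.31, adjusted p = 0.000896). The other retinal dehydrogenases, Aldh1a2 (0.01) and Aldh1a3 (-0.10), were dim on every array and did not pass.

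A different shape was seen in Aldh3b1, which acts on lipid aldehydes, and in Aldh4a1 of proline breakdown, where the Medium arrays stayed near the High arrays. Aldh3b1 read 6.57 and 6.50 in High, 6.95 and 6.56 in Medium and 8.69 and 9.07 in Low (-2.35 ± 0.19 for High minus Low, adjusted p = 0.000723, and -0.22 for High minus Medium, adjusted p = 0.669). Aldh4a1 read 4.84 and 4.90 in High, 5.34 and 5.32 in Medium and 7.91 and 7.05 in Low (-2.61 ± 0.27, adjusted p = 0.00144). The highest High or Medium array of each gene was more than 1 unit below its lowest Low array. Aldh1l1, which oxidises formyltetrahydrofolate, was lower by a difference of -1.61 ± 0.14 (adjusted p = 0.000922).

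Smaller differences were found for Aldh9a1 (-0.59, adjusted p = 0.0123), Aldh3a2, the fatty aldehyde dehydrogenase (-0.55, adjusted p = 0.0146), and Aldh16a1 (-0.41, adjusted p = 0.0326). The call of Aldh9a1 was lost without EphB2 High replicate 2 or EphB2 Low replicate 2 (adjusted p up to 0.0789), and that of Aldh3a2 without either EphB2 High array or EphB2 Low replicate 2 (up to 0.0882). Aldh16a1 lost its call without any 1 of the 6 arrays and with the mean of its probe sets (up to 0.157). Aldh7a1, which acts in lysine breakdown, was higher in High: 9.94 and 10.13 in High, 9.28 and 9.41 in Medium and 8.49 and 8.70 in Low (1.44 ± 0.14, adjusted p = 0.00117). Its other probe sets were dim, and with the mean of its probe sets the difference was 0.32 (adjusted p = 0.0816). Aldh5a1, the succinic semialdehyde dehydrogenase, was higher by 0.45 ± 0.12 (adjusted p = 0.0342), a call that 5 of the 6 fits without 1 array lost, with an adjusted p up to 0.176.

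The mitochondrial acetaldehyde enzymes did not pass. Aldh2 read between 12.34 and 12.62 on the 6 EphB2 arrays (-0.10, adjusted p = 0.537). Its other, dimmer probe sets differed by -0.44, -0.35, -0.27 and -0.43 between High and Low and were not tested singly. Aldh1b1, the brightest probe set of the family, read 13.35 and 13.41 in High, 13.26 and 13.36 in Medium and 13.07 and 13.04 in Low (0.33 ± 0.11, adjusted p = 0.0629), and it passed after a second quantile normalization (adjusted p = 0.0354), among the brighter genes alone (0.0203) and with a variance trend (0.00377). With the hybridization as a block, Aldh18a1, which makes the proline precursor, passed at -0.41 (adjusted p = 0.0294, against 0.0619 without the block) and the dim Aldh3b2 at 0.62 (adjusted p = 0.0184, against 0.0995).

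Aldo-keto reductases reduce sugars, steroids and lipid aldehydes with NADPH. Of 15, 4 were lower in EphB2 High, 0 were higher and 11 did not pass, and the median difference was -0.18. Akr1c19 read 10.61 and 10.22 in High, 11.70 and 11.77 in Medium and 11.96 and 12.50 in Low (-1.82 ± 0.22, adjusted p = 0.00222). On the means most of its step lay between High and Medium, but that difference did not pass (-1.32, limma adjusted p = 0.0645). Its Medium mean, 0.41 above the midpoint of High and Low, did not pass either (limma adjusted p = 0.457). Akr1c14, a hydroxysteroid dehydrogenase, differed by -1.53 ± 0.26 (adjusted p = 0.00613) and Akr1c13 by -0.73 ± 0.12 (adjusted p = 0.0064). Akr1b8, an aldose reductase relative, differed by -1.14 ± 0.27 (adjusted p = 0.0191, and up to 0.09 without EphB2 High replicate 2 or either EphB2 Low array).

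Akr1a1, the aldehyde reductase with the brightest probe set of the family, varied between 13.81 and 13.92 on the 6 EphB2 arrays (-0.07 ± 0.10, adjusted p = 0.661). Akr1c12 read between 12.30 and 12.58 (-0.18, adjusted p = 0.267). Akr1d1, the steroid reductase of bile acid synthesis, was below the gene median on every array. It differed by 0.54 ± 0.30 (adjusted p = 0.222), and with the hybridization as a block it passed (adjusted p = 0.0492).

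Between EphB2 Medium and EphB2 Low cells, 29 of the 106 enzymes were lower in Medium and 6 were higher, and over all genes 24.7% passed, 14.6% higher and 10.1% lower. Of the 47 enzymes lower in High than in Low, 28 were also lower in Medium than in Low. Of the 7 that were higher, 6 were also higher in Medium. Both comparisons use the same Low arrays, which favours such an overlap. Its share over all genes called between High and Low was not computed. The count rested on single arrays: 35 enzymes passed with all arrays, 22 without EphB2 Low replicate 2 (17 lower), 14 without EphB2 Medium replicate 1 (12 lower, 2 higher) and 11 without EphB2 Medium replicate 2 (9 lower, 2 higher). Calls of 10 enzymes were lost under no alternative that measured the gene. Among these 10, Aldh3b1 and Aldh4a1 were too dim for the alternative limited to genes above the median signal. The largest differences were Nat8f5 (-2.77 ± 0.27, adjusted p = 0.00351), Sult2b1 (-2.38 ± 0.15, adjusted p = 0.00132), Aldh1a7 (-2.29 ± 0.31, adjusted p = 0.00753), Nat8 (-2.27 ± 0.19, adjusted p = 0.00251), Aldh4a1 (-2.15 ± 0.27, adjusted p = 0.00658) and Aldh3b1 (-2.12 ± 0.19, adjusted p = 0.00302). Higher in Medium were Gstcd (1.61, adjusted p = 0.00802), Nat10 (1.19, adjusted p = 0.00435), Sult1a1 (1.06, adjusted p = 0.00846), Aldh7a1 (0.76, adjusted p = 0.0152, but -0.01 and 0.97 with the mean of its probe sets), Ces1d (0.58, adjusted p = 0.0271) and Gstm5 (0.53, adjusted p = 0.0228). No aldo-keto reductase passed here. With the hybridization as a block, Akr1c14 (-0.71, adjusted p = 0.0192), Ces1c (0.59, 0.0393), Ces1g (-0.68, 0.0336), Sult1d1 (-0.39, 0.0491) and Ugt2b36 (-0.69, 0.0401) passed as well.

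Fewer genes separated EphB2 High from EphB2 Medium cells: 1.36% of all genes passed, 0.214% higher and 1.15% lower in High. Of the 106 enzymes, 9 were lower and 0 were higher by limma, and 33 were lower and 4 higher at an unadjusted p below 0.05, a level that 14.2% of all genes passed. Nat8f5 differed by -2.75 ± 0.27 (adjusted p = 0.0193) and Nat8 by -2.38 ± 0.19 (adjusted p = 0.0121). The others were Aldh1a1 (-2.04 ± 0.26, adjusted p = 0.0317), Ces1f (-1.84 ± 0.23, 0.0307), Ugt2a3 (-1.59 ± 0.21, 0.033), Sult2b1 (-1.41 ± 0.15, 0.0197), Gsta4 (-1.34 ± 0.15, 0.0248), Ces2e (-1.06 ± 0.15, 0.0452) and Sult1b1 (-0.96 ± 0.12, 0.0315). With the hybridization as a block, Ces1f (adjusted p = 0.0565) and Ces2e (0.0719) no longer passed, while Aldh1a7 (-1.30, 0.0291), Nat8f4 (-0.85, 0.0455) and Ugt2b5 (-1.80, 0.0363) did. Each of the 9 calls was lost when 1 of the arrays was left out: 2 enzymes passed without EphB2 High replicate 1, and 0 passed without EphB2 High replicate 2, EphB2 Medium replicate 1 or EphB2 Medium replicate 2.

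Whether the Medium cells lay off the midpoint between High and Low was tested directly. Of the 106 enzymes 0 passed by limma, beside 0.0055% of all genes (1 of 18193), with the same count of 0 with the hybridization as a block and with a variance trend. At an unadjusted p below 0.05 there were 10 enzymes, 4 above and 6 below the midpoint (11.9% of all genes passed at that level, unadjusted). The smallest adjusted p was 0.202, for Aldh3b1, whose Medium mean lay 0.95 below the midpoint. Aldh4a1 lay 0.85 below it, Nat8f2 0.62 below, Ces1f 0.55 above and Gstcd 0.68 above, while Nat8 was at 0.06. The midpoints of Aldh4a1 and Nat8f2 rest on dim High signals. The late shape of Aldh3b1 and Aldh4a1 and the early shape of Ces1f and Akr1c19 did not pass this test. These shapes are therefore descriptions of the arrays.

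In the Lgr5 sort, with 1 array per group and no test, 21 of the 106 enzymes were more than 2-fold lower in Lgr5 High and 2 more than 2-fold higher. Over all genes, 7.41% passed that size, 2.34% higher and 5.07% lower. The median difference of the enzymes was -0.30, beside -0.05 for all genes. Of the 47 enzymes lower in EphB2 High, 44 were also below 0 in the Lgr5 sort and 19 were more than 2-fold lower. In that sort 83 of the 106 enzymes and 10116 of all 18193 genes were below 0. The share among all genes called lower in EphB2 High was not computed, so the 44 may reflect a general likeness of the 2 sorts. Nat8f5 read 4.17 on the Lgr5 High array, below the median of the stromal markers there (4.44), and 8.74 on the Lgr5 Low array, so its difference of -4.57 may be too small. The values were 6.39 and 10.09 for Nat8 (13.1-fold), 8.37 and 11.68 for Aldh1a1 (9.90-fold), 9.07 and 12.36 for Ces1f (9.80-fold) and 7.76 and 10.28 for Sult2b1 (5.75-fold). The order of the leading genes was thus not the same in the 2 sorts, with Ces1f and Aldh1a1 further apart than Aldh1a7, which read 8.51 and 10.43 (3.76-fold).

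Several genes with a large EphB2 difference were nearly level in the Lgr5 sort. Aldh3b1 read 6.65 and 7.02, Gstm6 8.31 and 8.67, and Nat8f2 4.75 and 4.74 on the Lgr5 High and Lgr5 Low arrays. Sult1a1 read 10.97 and 11.02, both above each of its EphB2 arrays. Of the 7 enzymes higher in EphB2 High, 6 were above 0 in the Lgr5 sort, as were 8044 of all 18193 genes. The share among all genes called higher in EphB2 High was not computed. Only Ces1d of the 7 passed 2-fold, at 12.40 on Lgr5 High and 11.32 on Lgr5 Low. Akr1d1 was the other enzyme past 2-fold higher (7.26 against 5.49), from values below the gene median of both arrays. Nat8f3 (4.44 against 6.21) and Ugt2b37 (2.90 against 4.70) were more than 2-fold lower in Lgr5 High at equally dim signals, without a call in the EphB2 sort.

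**Figure D3:**
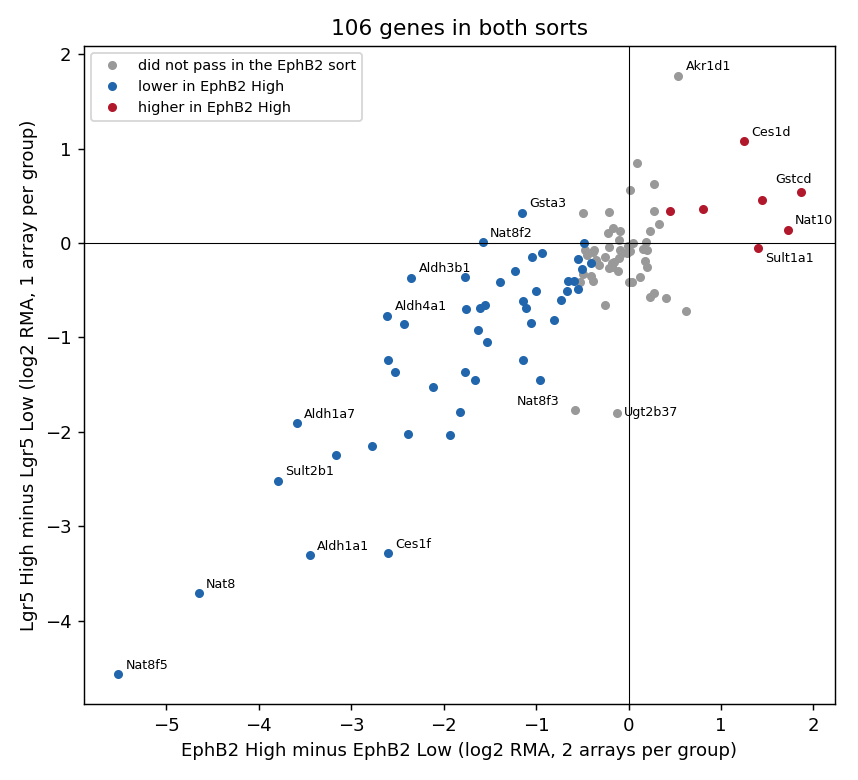
Log2 difference between EphB2 High and EphB2 Low (horizontal axis, 2 arrays per group) against that between Lgr5 High and Lgr5 Low (vertical axis, 1 array per group), with 1 point per gene for the 106 genes. Nat8f5 (-5.52 and -4.57) and Nat8 (-4.65 and -3.71) lie at the lower left, Ces1d (1.25 and 1.08) at the upper right, and Sult1a1, Nat8f2 and Gsta3 close to or across the horizontal line.

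Many of these genes lie next to each other on the chromosome. Among protein-coding genes in RefSeq order, 47 pairs of members were direct neighbours. Both genes were lower in EphB2 High in 17 pairs, neither passed in 11, 1 of the pair passed in 17, and the pair went opposite ways in 2. The same counts were not made over other pairs of genes. Whether neighbours shared a direction more often than other members was therefore not tested. The run Nat8f5, Nat8, Nat8f2, Nat8f4 and Nat8f1 on chromosome 6 was lower throughout, with differences of -5.52, -4.65, -1.58, -2.43 and -1.39. Their relative Nat8f3, on the same chromosome but not a direct neighbour of a member, did not pass (-0.58, limma adjusted p = 0.315). Aldh1a1 and Aldh1a7 on chromosome 19 differed by -3.45 and -3.59, and Ces2e, Ces2f and Ces2g on chromosome 8 by -1.93, -2.60 and -1.06.

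Other runs were broken. In the UGT2 run on chromosome 5, Ugt2b36 (-1.76) and Ugt2b5 (-3.17) stood beside Ugt2b37 (-0.13), and Ugt2a3 (-2.78) followed. The opposite pairs were Gstm5 (0.81) and Gstm7 (-1.23) on chromosome 3, whose windows are printed above, and Ces1d (1.25) and Ces1e (-0.81) on chromosome 8. Of the 17 called members that had other probe sets, the 21 other probe sets gave the opposite sign in 3 (of Aldh7a1, Gstm7 and Nat10), all of them dimmer than the median of genes. Members of a run can be near copies of each other, and whether a probe set also binds the transcript of a neighbour was not tested.

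**Figure D4:**
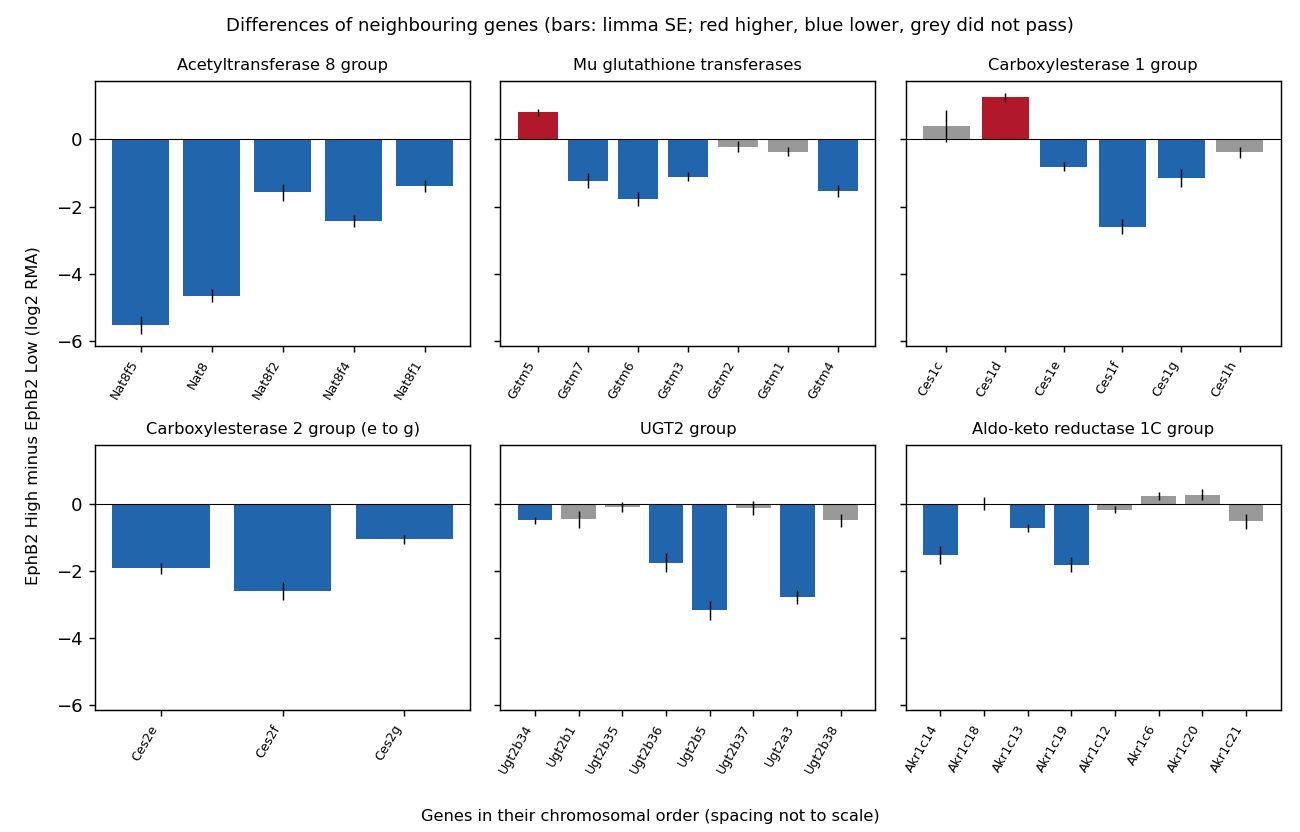
Log2 difference between EphB2 High and EphB2 Low (vertical axis, limma estimate with its standard error, 2 arrays per group) of genes in their order along the chromosome (horizontal axis, not to scale) in 6 runs of neighbours. All 5 genes of the acetyltransferase run lie below 0, from -5.52 to -1.39, while Gstm5 (0.81) and Ces1d (1.25) stand above 0 beside Gstm7 (-1.23) and Ces1e (-0.81).

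Genes that feed or regulate these enzymes were read from 7 lists, with the same threshold. Of 9 genes that supply the sugar and sulfate donors, 6 were lower in EphB2 High and 0 higher. Papss2, which makes the sulfate donor, read 9.77 and 9.28 in High, 12.04 and 11.88 in Medium and 12.86 and 13.11 in Low, a difference of -3.46 ± 0.20, and Ugdh, which makes UDP-glucuronic acid, differed by -1.25 ± 0.12. Of 15 regulators, 8 were lower and 0 higher, led by the xenobiotic receptors Nr1i3 (-2.70 ± 0.15) and Nr1i2 (-1.55 ± 0.16). Of 5 alcohol dehydrogenases, 4 were lower, with Adh4 at -4.25 ± 0.27 and Adh6a at -2.24 ± 0.23.

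Of 20 genes of glutathione supply and use, 7 were lower and 1 was higher. The higher one was Cbs, which feeds cysteine synthesis (3.03 ± 0.17), and the largest fall was that of Gpx3, a secreted glutathione peroxidase (-3.25 ± 0.41). Of 7 exporters of conjugates, 4 were lower and 2 higher: Abcc2, the apical pump, differed by -2.49 ± 0.22 and Abcg2 by -1.18 ± 0.12, while Abcc4 and Abcc1 were higher by 2.32 ± 0.12 and 1.77 ± 0.22. NADPH and quinone genes gave 6 lower and 1 higher of 11, with Ephx2 at -2.04 ± 0.15, Me1 at -1.98 ± 0.37 and Ephx1, the microsomal epoxide hydrolase, higher by 1.06 ± 0.16. Of 15 retinoid genes 5 were lower and 0 higher, among them Rdh7 (-2.85 ± 0.20) and Bco1 (-2.52 ± 0.27). The same shares over all genes were 22.0% higher and 15.3% lower, and the median differences of the lists ran from -1.70 for the alcohol dehydrogenases to -0.21 for the retinoid genes.

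Markers of mature enterocytes moved with the enzymes. All 16 measured were lower in EphB2 High than in EphB2 Low, and the log2 of their summed intensity was 15.27 and 15.30 in High, 16.35 and 16.41 in Medium, 17.48 and 17.57 in Low, 14.75 on Lgr5 High and 16.72 on Lgr5 Low. Their part in the enzyme differences was not tested, and in sorted bulk samples a change in the share of enterocytes and a change of RNA per cell cannot be told apart. Paneth markers went the other way, with 5 of 6 higher in EphB2 High and summed levels of 15.60 and 15.77 in High, 15.19 and 15.55 in Medium and 14.77 and 14.88 in Low, but 15.64 on Lgr5 High and 16.11 on Lgr5 Low. Of 8 tuft markers, 5 were higher and 1 lower in EphB2 High. Their summed level was between 10.91 and 11.50 in High and between 9.12 and 9.56 in Low. Of the 8 goblet markers, 1 was higher and 4 were lower, and of 10 enteroendocrine markers, 1 was higher and 5 lower. In the Lgr5 sort, 14 of the 16 enterocyte, 9 of the 10 enteroendocrine, 5 of the 8 goblet and 5 of the 8 tuft markers were more than 2-fold lower on Lgr5 High and 0 of these 4 lists' genes more than 2-fold higher, so the tuft markers went the other way there. The summed levels on Lgr5 High and Lgr5 Low were 12.58 and 14.95 for the enteroendocrine and 15.77 and 16.75 for the goblet markers, and that of the tuft markers was also lower on Lgr5 High than the 11.16 on Lgr5 Low. Myeloid markers were higher in 3 of 9 and lower in 0 and lymphocyte markers higher in 1 and lower in 2 of 10, while 0 of 10 stromal and 0 of 2 red blood cell markers passed. Of 6 hepatocyte markers 2 were higher and 1 was lower, and of 11 genes of dissociation stress 2 were higher and 1 lower. The part of these markers in the enzyme differences was not tested either.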

How the data were processed

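RNA of sorted crypt cells was hybridized to 8 Affymetrix mouse arrays. The deposited log2 values were made with RMA, per the submitters' processing notes; its version, and whether all arrays were normalized together, are not given in the sources used here. Quantile normalization within RMA equalises the distributions of the arrays and thereby hides any difference in total RNA content. For arrays, their number limits the precision.

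Of 45101 probe sets, 34945 named 1 gene, 932 several and 9160 none in the platform annotation used, and 64 controls were left out. A gene was read from the single-gene probe set with the highest EphB2 mean, with no filter on dim signals. The 106 enzymes had 159 such probe sets, and 35 had several. For 34741 of the single-gene probe sets the gene ID was in RefSeq (GRCm38.p6), and 0 symbols changed.

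The 6 EphB2 arrays were fitted with limma 3.58.1 in R 4.3.3 (lmFit, contrasts.fit, eBayes, 2-sided), with group as the only term and 3 residual degrees of freedom. P-values were adjusted by Benjamini-Hochberg across 18193 genes, and genes under 0.05 were called. The ± values are standard errors from limma (n = 2 arrays a group). The Lgr5 arrays, 1 per group, were compared by size alone, past 2-fold (1 on the log2 scale).

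By the labels, arrays with 1 replicate number were hybridized together and so form pairs. Their deviations from the group means correlated at 0.45 (High and Medium), 0.13 (High and Low) and 0.21 (Medium and Low). The pairing was an alternative, since no source says the study used it. The other alternatives were leaving out each array, a second quantile normalization, a filter on dim genes, the mean of probe sets, no shared probe sets, the annotation's own symbols and a variance trend.

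The members and lists were chosen with earlier results of these data known. Named were, per family, up to 5 enzymes called higher and 5 called lower in EphB2 High than in EphB2 Low, the brightest member, and up to 2 per direction in each other comparison; per pathway list, up to 2 per direction. Other members are named to account for their family, and were chosen after their values were seen.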

Additional observations from a re-analysis of the deposited data

Results flagged for a closer look

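In 3 enzymes the difference between EphB2 High and EphB2 Low passed its test, while the difference between the single Lgr5 High and Lgr5 Low arrays had the opposite sign. Gsta3, an alpha glutathione transferase, was lower in EphB2 High by a difference of -1.15 ± 0.19, and stood 0.32 higher on the Lgr5 High array (8.20 against 7.88). Nat8f2, an acetyltransferase, differed by -1.58 ± 0.25 in the EphB2 sort and by 0.01 in the Lgr5 sort (4.75 against 4.74), at signals below the gene median of both arrays. Sult1a1, the phenol sulfotransferase, was higher in EphB2 High by 1.40 ± 0.15 and differed by -0.05 in the Lgr5 sort (10.97 against 11.02). Whether the 2 sorts differ for these genes was not tested, since the Lgr5 groups have 1 array each.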

How the results depend on the processing

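Between EphB2 High and EphB2 Low, the alternatives that kept all 6 EphB2 arrays gave 52 to 60 called enzymes against 54. Of the 54 calls, 39 were lost in no alternative that measured the gene, and 14 were lost without some array. The filter on dim genes leaves out genes below the median signal and shared 45 of the 54 calls. Ces1f was not measured without shared probe sets. Between Medium and Low, leaving out 1 array gave 11 to 35 calls against 35 (9 to 30 lower, 2 to 5 higher), and 10 calls held throughout. Between High and Medium it gave 0 to 7 against 9, all lower. That comparison also gave 19 calls (17 lower, 2 higher) among genes above the median signal and 21 (20 lower, 1 higher) with a variance trend. With the hybridization of the replicate number as a block, the counts were 58, 40 and 10, and beyond the calls named in the report the block changed no other call. In the Lgr5 sort, 1 enzyme in place of 2 was past 2-fold higher among genes above the median signal. With the mean of probe sets, Aldh7a1 between Medium and Low turned to -0.01. The median difference of all genes between High and Low was 0.1 among genes above the median signal and lay within 0.03 of 0 otherwise.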
